A study of Mus musculus with 4 samples.

Results

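Immunoglobulins and T cell receptors are the antigen receptors of B and T cells, and each is encoded by a long array of variable (V), joining (J) and, in some loci, diversity (D) segments followed by constant genes. Developing lymphocytes cut these arrays and join 1 segment of each kind into a working gene, whereas other cells keep them in the germline order. The loci IGH, IGK and IGL encode the antibody heavy, kappa light and lambda light chains. TRA and TRB encode the alpha and beta chains of most T cells, and TRG and TRD those of gamma-delta T cells, with TRD lying inside TRA. The transcription factor NFkB takes its name from its binding to the enhancer of the kappa light chain gene in B cells.

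The accessibility of these 6 loci (TRA and TRD counted together) was described in HEK293 cells, an established human line from embryonic kidney that is not of the lymphoid lineage. Peaks of the TRAFTAC dataset were assigned to a locus when the summit lay between fixed borders on GRCh38. Of 48751 peaks in the list, 97 (0.199%) were members: 40 in IGL, 24 in IGH, 14 in IGK, 8 in TRB, 7 in TRG and 4 in TRA/TRD. The 4 ATAC-seq libraries came from 2 groups of 2, given either the NFkB TRAFTAC or the scrambled TRAFTAC at 25 nM. A TRAFTAC is a DNA and RNA hybrid whose DNA carries a binding motif, here that of NFkB or a scrambled sequence, and whose RNA recruits dCas9 fused to a HaloTag. All 4 libraries shared the transfected dCas9-HT7 plasmid, 6 h of transfection, and 19 h with TNF-α at 5 ng/mL and the HaloTag PROTAC HP14 at 25 μM, and no untreated cells were included. The paper also describes a DNase treatment of the cells shortly before harvest.

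The deposited list is named as coming from the merged samples and holds no value of a single library. The groups therefore could not be compared, there was no replicate error, and the intervals given here are 95% intervals for counting error only, which neighbouring peaks may exceed since they are not independent. The labels name the mouse, but 40 members lie on chromosome 22, which the mouse does not have. An annotation and a sequence of GRCh38 were not used here, so peaks were not assigned to single segments or genes and no sequences are printed.

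The 6 loci together are 5.22 Mb long, so that the 97 peaks had a density of 18.6 per Mb (15.1 to 22.7, exact Poisson interval). Chromosomes 1 to 22 and X, measured to their last peak, held 16.0 peaks per Mb. The loci as a whole were therefore not empty of open chromatin in HEK293 cells. The 1 Mb on each side of the loci held 318 peaks in 11.0 Mb, or 28.9 per Mb (25.8 to 32.3), and the ratio of loci to flanks was 0.643 (0.507 to 0.809, exact conditional interval). Without TRA/TRD and its flanks, the ratio was 0.808 (0.629 to 1.03) and no longer below 1 beyond counting error. The pooled ratio sums peaks and lengths, so a locus does not weigh alike on both sides. TRG gave 0.140 Mb of locus but 2 Mb of flanks, and IGH 1.31 Mb of locus but 1 Mb of flank. A ratio weighted by locus length was not calculated, so the pooled ratio and its change without TRA/TRD hold for these weights only. IGH counted with its lower flank alone, because its upper border lies past the last peak of chromosome 14. Any bases beyond that border hold no peak and were left out, which can only raise the flank density and lower the ratio of IGH.

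The loci differed widely from each other. TRG was densest with 50.0 peaks per Mb (20.1 to 103), followed by IGL with 44.0 (31.4 to 59.9), IGH with 18.3 (11.7 to 27.3), TRB with 15.1 (6.52 to 29.7), IGK with 10.1 (5.51 to 16.9) and TRA/TRD with 4.26 (1.16 to 10.9). Between neighbours in this order, only the step from IGL to IGH was larger than its counting error, with a ratio of 2.40 (1.41 to 4.16). The other neighbouring ratios ran from 1.14 to 2.37 and all their intervals included 1. The 3 immunoglobulin loci together held 78 peaks, or 21.6 per Mb, and the T cell receptor loci held 19, or 11.8 per Mb, a ratio of 1.83 (1.10 to 3.20). Without IGL the difference was not beyond counting error, since IGH and IGK alone had 14.1 peaks per Mb, a ratio of 1.19 (0.671 to 2.19).

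**Figure D1:**
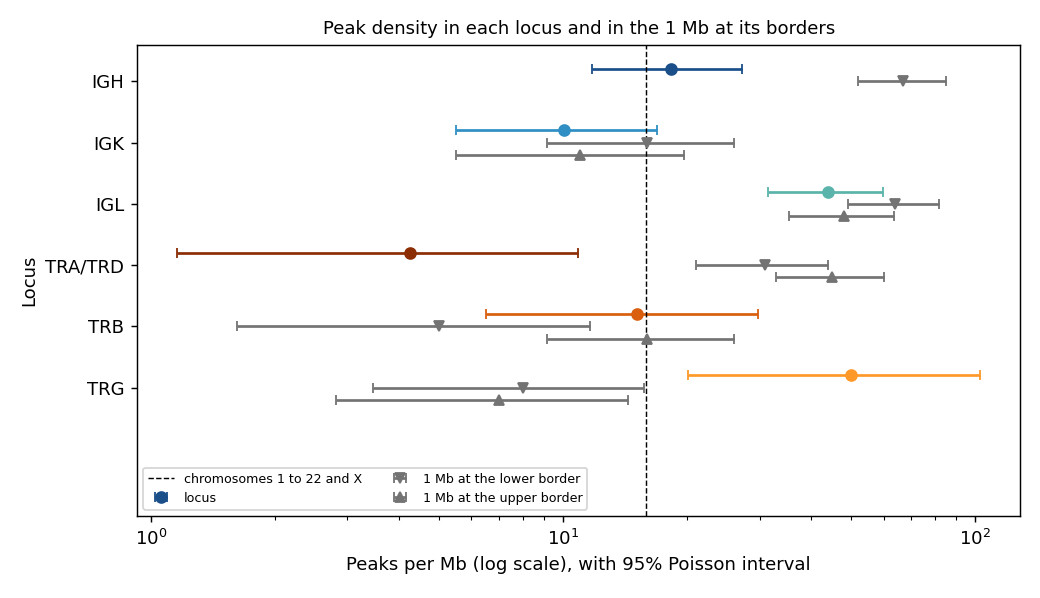
Peaks per Mb (log scale) in each locus (coloured circles) and in the 1 Mb at its lower and upper border (grey triangles), with 95% Poisson intervals; the dashed line marks the 16.0 peaks per Mb of chromosomes 1 to 22 and X. IGH and TRA/TRD lie below their flanks without overlap of the intervals, and TRG lies above both of its flanks.

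Against their own surroundings, the loci fell into 3 kinds. IGH and TRA/TRD were sparser than their flanks: IGH had a ratio of 0.273 (0.164 to 0.442), against 67 peaks in its lower flank, and TRA/TRD had 0.112 (0.0297 to 0.299), against 31 peaks in its lower and 45 in its upper flank. IGK, IGL and TRB could not be told from their flanks at this number of peaks, with ratios of 0.746 (0.362 to 1.47), 0.785 (0.533 to 1.14) and 1.44 (0.551 to 3.38). For IGK this depended on the flanks: with 2 Mb on each side its ratio was 0.443 (0.233 to 0.782), below 1 beyond counting error. TRG was denser than its flanks, with a ratio of 6.67 (2.30 to 17.4), against 8 peaks in the lower and 7 in the upper flank. With the borders moved inwards by 50 kb, only 2 TRG peaks remained, and the ratio was again 6.67 but its interval (0.740 to 28.7) included 1. Peaks were unevenly placed in the flanks too. The 11 peaks of the upper IGK flank all lay within 200 kb of the border, with 0 in the remaining 800 kb towards the centromere. Lengths counted every base, and bases missing from the assembly were not looked for. Whether peaks could be called in these 800 kb was therefore not tested, and the flank density and ratio of IGK rest on the full lengths.

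Peaks of the antigen receptor loci were narrow. Their median width was 437 bp (387 to 515, order-statistic interval), against 678 bp (626 to 744) in the flanks and 590 bp over all peaks. The median was below that of the flanks in IGH (408.5 against 667 bp), IGK (408.5 against 599), IGL (510.5 against 611.5), TRA/TRD (309.5 against 821) and TRB (343 against 663), and above it only in TRG (475 against 443). Widths of at least 600 bp were found in 27 of the 97 peaks (27.8%), 183 of the 318 flanking peaks (57.5%) and 49.2% of all peaks, a difference from the flanks of -29.7 percentage points (-39.3 to -18.6). With each locus left out in turn, the difference ranged from -42.2 to -25.8 points. The widest peaks of TRB and TRG measured 549 and 598 bp. Under 300 bp were 20 members (20.6%), against 11.6% of the flanking peaks and 14.4% of all peaks, and the difference from the flanks was 8.98 points (1.05 to 18.6). Fewer and narrower peaks together left 10.3 bp per kb of the loci inside peaks, against 22.1 in the flanks and 11.5 over chromosomes 1 to 22 and X. The difference was largest in IGH, with 9.15 bp per kb against 55.1, followed by TRA/TRD, with 1.82 against 32.4, whereas TRG had 22.8 against 4.51.

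Very strong peaks were few in these loci. The list gives for each peak the −log10 of its q-value, the significance that MACS2 attached to the summit after correction for multiple testing. A value of at least 100 was reached by 6 members (6.19%, Wilson interval 2.87% to 12.8%), against 21.5% of all peaks and 70 of the 318 flanking peaks. The difference from the flanks was -15.8 percentage points (-21.7 to -7.95), and from -20.6 to -12.1 points with single loci left out. IGH departed from this, with 3 of 24 peaks (12.5%) against 11.9% in its flank. At the lower end, 91 members (93.8%) reached a value of 5, against 86.5% of all peaks. The members thus clustered in the middle of the range, with 40.2% of them between 20 and 50 against 20.1% of all peaks.

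Width was also compared within classes of −log10 q-value, since stronger peaks were wider. From 20 to 50, the 39 members had a median width of 506 bp (387 to 549), against 699 bp (599 to 815) in 70 flanking peaks and 600 bp over all peaks, and the intervals of loci and flanks did not overlap. In the other classes they overlapped. From 50 to 100, the medians were 653 bp (545 to 801) in 13 members and 874 bp (763 to 981) in 51 flanking peaks. At 100 and above, a class without an upper limit, they were 721.5 bp (429 to 1248) in 6 members and 1035 bp (952 to 1105) in 70 flanking peaks. From 10 to 20, they were 299 bp (270 to 530) in 22 members and 401 bp (349 to 467) in 44 flanking peaks. Under 10, they were 342 bp (280 to 400) in 17 members and 380 bp (330 to 423) in 83 flanking peaks. The median of the loci was the lower one in all 5 classes, by more than counting error in 1 of them.

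**Figure D2:**
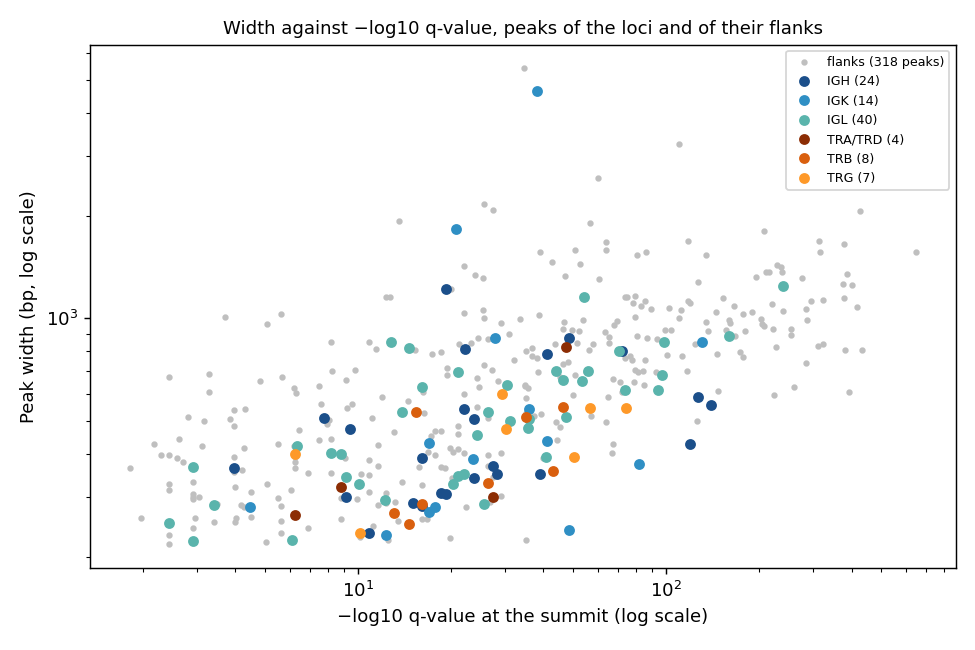
Peak width (bp, log scale) against −log10 q-value (log scale) for the 97 peaks of the loci (coloured by locus) and the 318 peaks of their flanks (grey). Between −log10 q-values of 20 and 50 the coloured points have a median width of 506 bp and the grey points of 699 bp, and 2 IGK peaks of 4662 and 1834 bp stand above the other coloured points.

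Fold enrichment did not follow width. The fold is the number of fragments stacked at the summit over the local background, and its median was 6.42 (5.52 to 7.25) in the loci, 6.01 (5.47 to 6.42) in the flanks and 5.60 over all peaks. It was higher than in the flanks in IGH (6.15 against 5.13), IGK (5.60 against 5.03), IGL (6.86 against 5.81) and TRG (7.65 against 6.00), equal in TRB (6.29), and lower in TRA/TRD (5.67 against 7.04). The intervals of the medians of locus and flanks overlapped in all 5 loci for which both could be given, TRA/TRD having too few peaks. The highest fold of the members was 18.2, and 40.2 in the list.

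The stacked fragments and the local background were recovered separately from the fold and the p-value, and the recovered values fitted all 97 members. At the summit a median of 51 fragments (45 to 60) were stacked over the 4 libraries, against 72.5 (63 to 84) in the flanks and 56 over all peaks. An even split of the 51 would give about 12.8 fragments per library, but the true split is unknown. Counting error on 51 fragments has a standard deviation of 7.14 fragments. The local background was within 1% of the lowest value in the list, 6.32 fragments, in 56 members (57.7%, 47.8% to 67.1%), against 21.7% of the flanking and 34.4% of all peaks. The difference from the flanks was 36.0 percentage points (25.0 to 46.3) and between 32.3 and 40.2 points with single loci left out. Of these 56 members, 47 had no other member within 5 kb. Gaps under 5 kb were few among all members, however: 5 of 23 in IGH, 4 of 13 in IGK and 7 of 39 in IGL. TRG had 1 of 6, TRB 0 of 7 and TRA/TRD 0 of 3. Lying apart was thus common among all members. Whether it was more common in these 56 than in the members of higher background was not tested. A background within 1% of the lowest value was found in TRB for 8 of 8 peaks, in TRA/TRD for 3 of 4, in IGH for 15 of 24, in IGK for 8 of 14 and in IGL for 20 of 40. TRG differed, with 2 of 7 peaks against 9 of 15 in its flanks. Because the background is constant in these peaks, equal fragment counts give equal values, and 30 members shared fold and p-value with another member at a different place.

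**Figure D3:**
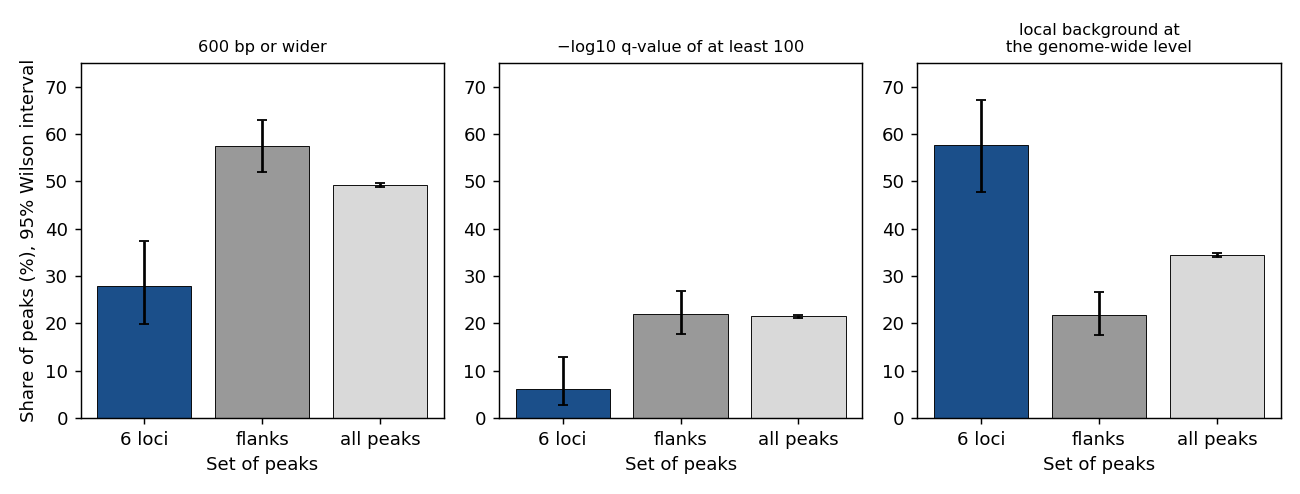
Share of peaks (%) in the 6 loci, their flanks and the whole list that were at least 600 bp wide, that reached 100 in −log10 q-value, and whose local background lay within 1% of the lowest value in the list, with 95% Wilson intervals. The loci have the lowest bars in the left and middle panels (27.8% and 6.19%) and the highest in the right (57.7%).

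Within the loci, peaks were unevenly placed. Stretches of at least 100 kb separated 13 of the 91 pairs of neighbouring members (14.3%), close to the 13.0% of chromosomes 1 to 22 and X. The longest stretch without a peak was 500.3 kb in TRA/TRD (53.2% of the locus), 342 kb in IGK (24.6%), 299.8 kb in IGH (22.9%), 247 kb in TRB (46.7%), 81.4 kb in TRG (58.1%) and 75.7 kb in IGL (8.32%). IGL was the only locus in which the longest stretch took up less than 20% of the length. It also held the most peaks, and the longest stretch tends to shrink as peaks are added. The share is therefore no measure of how evenly peaks are placed. Whether these stretches hold bases missing from the assembly, where no peak can be called, was not examined. When each locus was divided into 3 equal parts, the part at the constant gene end (the lower border in IGH, IGK and TRG, the upper in IGL, TRA/TRD and TRB) held 34 of the 97 peaks. These were 18 in IGL, 8 in IGH, 4 in IGK, 3 in TRA/TRD, 1 in TRB and 0 in TRG, so that peaks did not gather in this part in general. The part is not limited to the constant genes, and in TRA/TRD it also holds a peak of the V segment part. Whether peaks gather at the constant genes themselves was not tested, since no annotation was used.

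**Figure D4:**
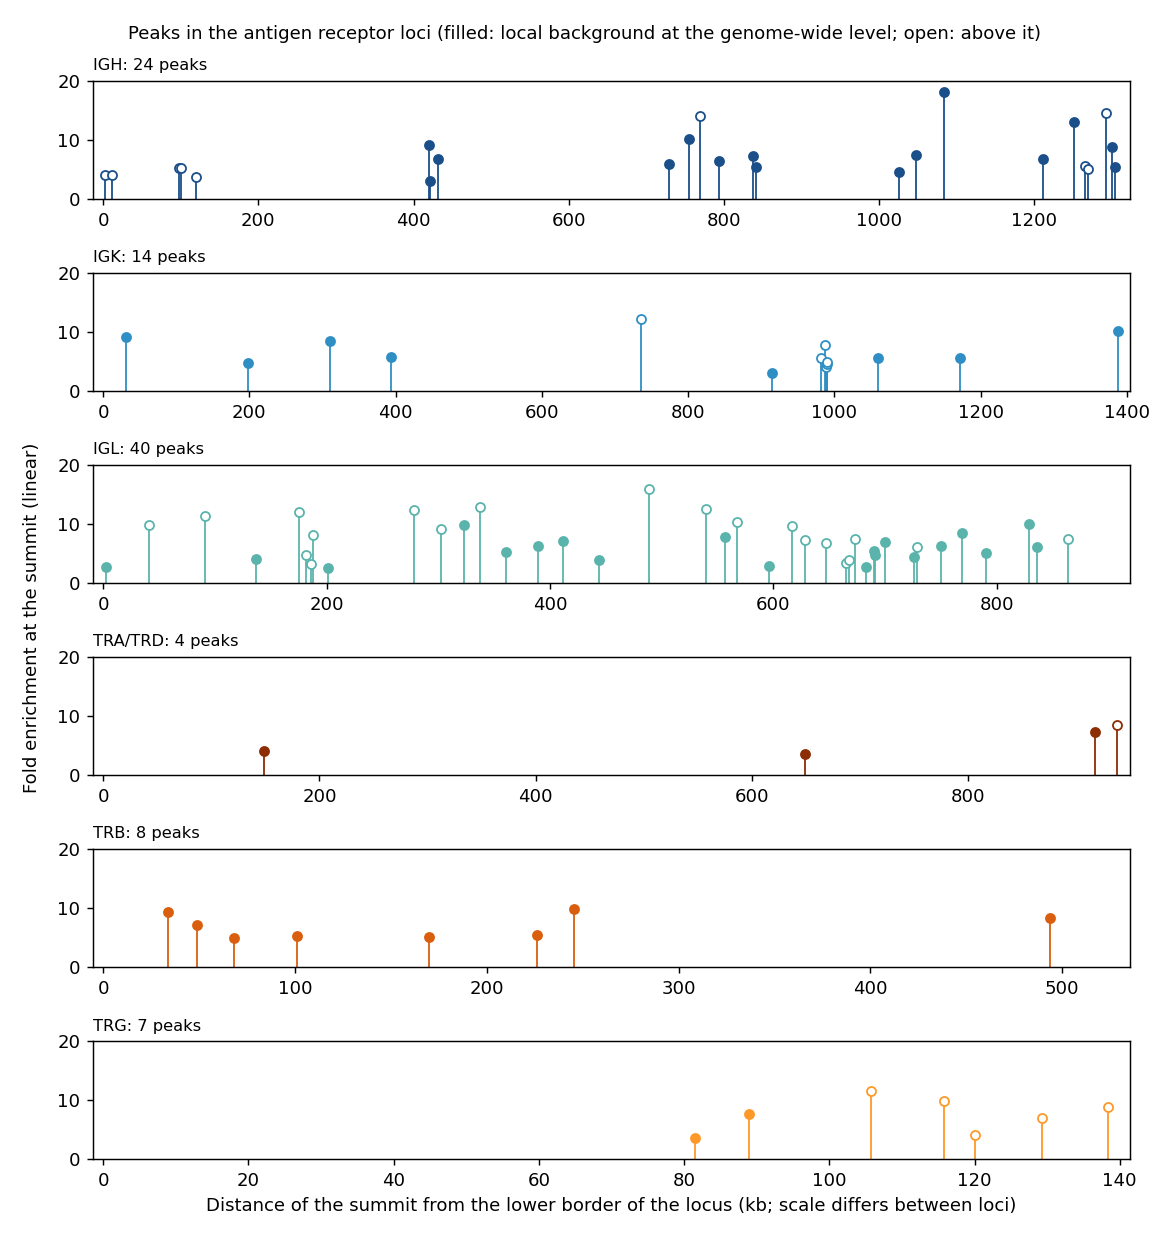
Fold enrichment at the summit against distance from the lower border (kb, own scale for each locus) for all 97 peaks; filled points have a local background within 1% of the lowest value in the list, open points a higher one. Peaks fill IGL along its whole length, stand in separate groups in IGH, and are absent from the lower 81.4 kb of TRG and from most of TRA/TRD.

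IGH, the heavy chain locus (chromosome 14, 105580000 to 106890000), has its constant genes at the lower border and its V segments towards the telomere. Its 24 peaks lay in groups divided by 2 long stretches, of 299.8 kb from 105699622 to 105999389 and of 297 kb from 106012237 to 106308950. The 5 peaks below the first stretch, on the constant gene side, had folds of 3.66 to 5.30. The highest fold, 18.2, belonged to the peak from 106663862 to 106664290 (429 bp, −log10 q-value 119), with 132 fragments (110 to 157, exact Poisson interval) at its summit. The highest −log10 q-value, 140, belonged to the peak from 106349076 to 106349633 (558 bp), with 181 fragments (156 to 209) and a fold of 14.1 over a background of 1.88 times the genome-wide one. The last 100 kb held 7 peaks, among them folds of 13.0 and 14.5, and the last of them, from 106883218 to 106883605 with a fold of 5.47, was also the last peak of chromosome 14. The nearest peak outside the lower border was 19.5 kb away and had a fold of 3.31, against 4.12 for the first peak inside.

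IGK, the kappa light chain locus (chromosome 2, 88850000 to 90240000), has its constant gene at the lower border and its V segments in a pair of mirrored copies, of which the far copy faces the centromere. The peak nearest the constant end, from 88880500 to 88880936, had a fold of 9.16 and 66 fragments. The highest fold and −log10 q-value, 12.3 and 130, fell on the peak from 89585152 to 89586005 (854 bp, 183 fragments, 157 to 212), just past the longest stretch without a peak. Values of the following group were seen before it was chosen. From 89827963 to 89841153, 5 peaks lay within 13.2 kb, under 5 kb apart, and held 69.5% of all bases in IGK peaks. They included the widest member, 4662 bp, which was the only member of 2 kb or more, against 879 such peaks in the list. Their local background was 2.32 to 2.97 times the genome-wide one and their folds were 4.07 to 7.85, whereas 8 of the 9 other IGK peaks stood at the genome-wide background. Without the 5 peaks the median width of IGK was 280 bp, the median fold 5.74, the density 6.47 peaks per Mb (2.96 to 12.3) and the ratio to the flanks 0.480 (0.198 to 1.05). The last peak, from 90237930 to 90238169, lay at the centromeric border with a fold of 10.1 in only 240 bp, and the nearest peak beyond it had a fold of 2.60 in 672 bp.

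IGL, the lambda light chain locus (chromosome 22, 22020000 to 22930000), held the most peaks. It has its V segments towards the lower border and its pairs of J segments and constant genes towards the upper. Other genes, such as PRAME, a tumour antigen gene, lie among its V segments, and how many of the peaks belong to them was not examined. Divided into 3 equal parts, it held 11 peaks in the lower, 11 in the middle and 18 in the upper. In the lower part, 4 peaks from 22195231 to 22208219 lay within 13.0 kb, with folds of 3.27 to 12.0. The highest fold, 16.0, was found from 22508198 to 22509085 (888 bp, −log10 q-value 160, 193 fragments, 167 to 222). The highest −log10 q-value of all members, 239, was found from 22297417 to 22298664 (1248 bp), with 339 fragments (304 to 377), the largest pileup of the members, and a fold of 12.4 over a background of 4.18 times the genome-wide one. IGL also held the weakest member, from 22221450 to 22221700, with 18 fragments, a fold of 2.60 and a −log10 q-value of 2.43. In the upper part, 4 pairs of neighbours lay under 5 kb apart, and the closest pair was separated by 0.226 kb.

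TRA/TRD, the alpha and delta chain locus (chromosome 14, 21620000 to 22560000), had the fewest peaks, and all 4 are given. In the V segment part, the peak from 21768321 to 21768639 had 29 fragments (19.4 to 41.6) and a fold of 4.10. The peak from 22268926 to 22269190 had 25 fragments (16.2 to 36.9) and a fold of 3.55. Both were weak, and 500.3 kb without a peak lay between them. The other two lay at the upper border, where the alpha J segments and constant gene are found. The peak from 22537026 to 22537325 had 52 fragments (38.8 to 68.2) and a fold of 7.24, and the peak from 22556806 to 22557629 had 81 fragments (64.3 to 101), a fold of 8.57 and the largest width of the locus, 824 bp. The summit of the latter lay at 99.7% of the length of the locus, and the next peak began 10.3 kb outside it with a fold of 3.69. With both borders moved inwards by 50 kb, 2 peaks were left, a density of 2.38 per Mb.

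TRB, the beta chain locus (chromosome 7, 142290000 to 142820000), has its V segments from the lower border on and its D, J and constant segments at the upper. From 142323761 to 142535691, in the V segment part, it held 7 peaks, which had folds of 4.92 to 9.84 and widths of 250 to 549 bp. The peak of the highest fold and −log10 q-value, 9.84 and 46.2, was the last of these, from 142535143 to 142535691, with 71 fragments (55.5 to 89.6). After 247 kb without a peak, a single peak from 142783082 to 142783594 followed near the D, J and constant end, with a fold of 8.34 and 60 fragments (45.8 to 77.2). The nearest peak below the lower border was 314 kb away.

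TRG, the gamma chain locus (chromosome 7, 38230000 to 38370000), lies on the minus strand, with its constant genes at the lower border and its V segments at the upper. All 7 peaks lay within 57.1 kb of the V segment side, and the lower 81.4 kb, with the constant genes, held 0. Ordered by position, their folds were 3.55, 7.65, 11.6, 9.94, 4.07, 6.99 and 8.94. The highest fold and −log10 q-value, 11.6 and 74.1, belonged to the peak from 38335497 to 38336043 (547 bp, 105 fragments, 85.9 to 127). From this peak to the border, the 5 peaks had local backgrounds of 1.18 to 1.35 times the genome-wide one, and gaps of 3.89 to 9.44 kb. The series of peaks did not stop at the border: a further peak of 283 bp began at 38370001, the first base outside, with a fold of 4.55, and was the only one in the first 100 kb of the upper flank.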

How the data were processed

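ATAC-seq was performed on 4 HEK293 libraries. The authors used Trimmomatic for trimming, Bowtie2 for alignment to GRCh38.p10, Picard for duplicates and MACS2 (paired-end mode) for peak calling, and state that blacklisted regions were removed. Their methods describe consensus peaks merged from calls per sample. That the list was instead called on merged libraries rests on its deposited name, and whether it was filtered on blacklisted regions was not tested. How reads fitting several near-identical segments were placed is not given in the sources used here. Per peak, the authors deposited a score, the fold enrichment (a linear ratio), the −log10 p-value and −log10 q-value, and the summit. Columns of single samples numbered 0, so the depth per library is unknown.

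The members and lists were chosen with earlier results of these data known. Peaks were counted by summit with Python 3.11.15, pandas 2.3.3, numpy 2.4.6 and scipy 1.17.1, and plotted with matplotlib 3.10.9. Positions are 1-based. Flanks of 1 Mb ended at the last peak of the chromosome. Lengths of loci and flanks counted every base, and bases missing from the assembly were not looked for. Pileup and background were recovered with a pseudocount of 1 and a Poisson tail (misfit at most 0.001, met by 48727 of 48751 peaks), a search tested on simulated data. Intervals were 95% Poisson, conditional, Wilson, Newcombe (differences of shares) or order-statistic. No p-value was calculated. Peaks named per locus were those of highest fold and highest −log10 q-value, and all where a locus had 5 or fewer. Others were named after their values were seen. The planned annotation and motif searches were not run, because a GRCh38 reference was not used here. Alternatives required a −log10 q-value of 5 or any overlap, moved the borders by 50 kb, set flanks to 0.5 or 2 Mb or to the lower side for IGH and IGK, capped the background at 10 times its lowest value, or left out each locus. Limits of width, −log10 q-value and background used for shares were set after seeing the data.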

Additional observations from a re-analysis of the deposited data

How the results depend on the processing

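The pooled density of 18.6 peaks per Mb fell to 13.2 without IGL, outside its interval, and stayed within it under the other alternatives. The pooled ratio of loci to flanks ranged from 0.526 to 0.808 over 13 alternatives, and its interval included 1 only without TRA/TRD. In each alternative it summed peaks and lengths, so loci and flanks kept unlike weights. For IGH (0.210 to 0.390) and TRA/TRD (0.0627 to 0.128) it stayed below 1, interval included, in the 4 alternatives that changed the peaks, borders or flanks used. Counting any overlap changed no value, and using lower flanks alone could change only IGK and the pooled ratio, so neither says anything about the other loci. For TRG it ranged from 4.44 to 7.14, and its interval included 1 with the borders moved inwards by 50 kb, a setting that also shortened the longest stretch of TRG without a peak to 31.4 kb, since it removes part of that stretch. The ratio of IGK was below 1 with its whole interval only with flanks of 2 Mb (0.443). The median width (392 to 475 bp) and median fold (5.88 to 6.76) stayed within their intervals. The limit on local background removed 0 members and says nothing about stability. Alternatives for the stretches without a peak, for shares and for the run of 5 IGK peaks were chosen after seeing the data. Single replicates could not be left out, and no paired fit was made, for want of values of single samples. No paired analysis was possible because every value describes the merged libraries.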
